A study of Mus musculus with 4 samples.

Results

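Dectin-2 dependence of the co-culture response was measured gene by gene, as the co-culture change of SL4 cells with wild-type Kupffer cells minus the change of SL4 cells with Kupffer cells that lack Dectin-2. Genes entered where their brightest probe set, the one with the highest mean log2 signal, exceeded 4 times the median of all probe sets in at least 1 array. That median was a signal of 76.1, so that the threshold lay at 304. Of 18193 genes on the array, 7987 were members (43.9%).

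Kupffer cells are the macrophages that reside in the liver, and SL4 is a line of mouse colon carcinoma cells. The Kupffer cells, gated as CD45+ CD11b+ F4/80+ by cell sorting, came from C57BL/6 females aged 12 weeks, either wild type or Clec4n-/-, Clec4n being the gene of Dectin-2. The SL4 cells, also of C57BL/6 origin, were the same in every group and only the Kupffer cells lacked the gene. Each culture held 100000 cells of either kind for 8 hours in serum-containing medium. The groups were wild-type cells in separate culture, knockout cells in separate culture, wild-type cells in co-culture and knockout cells in co-culture. In separate culture the 2 cell types stayed apart and their RNA was mixed afterwards, so each array holds RNA of both. Each group had 1 array, whether RNA of several mice was pooled is not given in the sources used here, and no difference was tested. In such mixed RNA, fewer cells of a type and less RNA per cell cannot be told apart.

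Dectin-2 is a C-type lectin receptor of macrophages and dendritic cells that binds mannose-rich glycans, best known from fungal cell walls. It pairs with the Fc receptor gamma chain (Fcer1g), which signals through the kinase Syk and the Card9, Bcl10 and Malt1 complex to NF-kappaB. NF-kappaB proteins bind kappaB sites in DNA and drive chemokine, cytokine and prostaglandin genes together with their own inhibitors, among them Nfkbia and Tnfaip3. The series' title names genes induced by the contact between Kupffer and cancer cells in dependence on Dectin-2 as its subject, and the difference between the genotypes' changes addresses that question.

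The promoters of genes with a shared response and of genes with a difference between genotypes are shown first, since a kappaB site is the element that this pathway acts through. Promoters are 300 bases long, from 250 before to 50 after the start site, from RefSeq on GRCm38.p6, written 5′ to 3′ on the gene's strand, with matches to the kappaB consensus in capitals. Cxcl1, Nfkbia and Tnfaip3 were higher in co-culture in both genotypes. Grtp1 and Aasdh were past 2-fold in the difference between genotypes and their second probe sets ran the same way.
Cxcl1, chr5:90890995-90891294, plus strand: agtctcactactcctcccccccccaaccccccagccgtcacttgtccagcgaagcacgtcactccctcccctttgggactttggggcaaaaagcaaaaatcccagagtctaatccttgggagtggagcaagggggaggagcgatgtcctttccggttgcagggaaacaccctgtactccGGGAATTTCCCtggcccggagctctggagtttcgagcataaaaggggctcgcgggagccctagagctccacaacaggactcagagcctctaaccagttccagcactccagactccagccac
Nfkbia, chr12:55492598-55492897, minus strand: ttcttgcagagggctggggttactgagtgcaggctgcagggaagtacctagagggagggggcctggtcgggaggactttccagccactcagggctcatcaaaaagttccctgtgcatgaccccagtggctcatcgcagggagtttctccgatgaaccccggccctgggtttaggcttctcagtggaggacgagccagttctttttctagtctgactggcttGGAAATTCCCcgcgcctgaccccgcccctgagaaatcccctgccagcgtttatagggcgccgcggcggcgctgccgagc
Tnfaip3, chr10:19015361-19015660, minus strand: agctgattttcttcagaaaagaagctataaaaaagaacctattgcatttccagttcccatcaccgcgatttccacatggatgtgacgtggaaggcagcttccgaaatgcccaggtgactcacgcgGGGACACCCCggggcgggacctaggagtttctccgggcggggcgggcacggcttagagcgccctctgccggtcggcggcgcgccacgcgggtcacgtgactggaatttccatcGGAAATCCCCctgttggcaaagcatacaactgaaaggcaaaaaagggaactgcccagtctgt
Grtp1, chr8:13200575-13200874, minus strand: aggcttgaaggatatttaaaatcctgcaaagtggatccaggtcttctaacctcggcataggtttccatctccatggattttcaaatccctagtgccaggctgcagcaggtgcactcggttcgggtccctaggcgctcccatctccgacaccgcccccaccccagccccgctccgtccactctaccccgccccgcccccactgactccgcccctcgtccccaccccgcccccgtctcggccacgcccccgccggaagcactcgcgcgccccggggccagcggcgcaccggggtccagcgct
Aasdh, chr5:76905427-76905726, minus strand: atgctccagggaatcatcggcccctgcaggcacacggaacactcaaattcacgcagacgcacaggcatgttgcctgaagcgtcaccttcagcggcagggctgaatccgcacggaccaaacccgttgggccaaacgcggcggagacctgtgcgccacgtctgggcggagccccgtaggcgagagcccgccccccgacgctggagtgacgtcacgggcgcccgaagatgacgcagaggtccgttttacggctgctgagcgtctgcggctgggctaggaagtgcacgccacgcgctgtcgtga
The capital run of Cxcl1 begins at position -71 from the start site and holds overlapping matches on both strands. The match of Nfkbia begins at -29 and those of Tnfaip3 begin at -125 and -12. No match lies in the windows of Grtp1 and Aasdh. Both strands were searched, and 2779 of all 32851 promoters searched (8.46%) held a match, against 853 of 8464 promoters of member genes (10.1%). Of the genes at least 2-fold higher in co-culture on the mean of both genotypes, 35 of 43 were in the table and 10 had a promoter with a match, over 13 of 53 promoters (24.5%). Those 10 were Bcl3, Cxcl1, Ier3, Nfkb2, Nfkbia, Nfkbie, Pde4b, Slc24a3, Tgfb1 and Tnfaip3. Of the genes at least 2-fold lower, 6 of 26 promoters (23.1%) held one. Of the 32 genes whose changes differed at least 2-fold between genotypes, 26 were in the table, and 3 of their 32 promoters (9.38%) held a match, in Antkmt and Pwwp2a. A match is a description of the letters and not a binding site.

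Clec4n itself was too dim to check the labels. Its brighter probe set read 14.2 and 17.6 in the wild-type separate and co-culture arrays and 8.29 and 8.19 in the knockout ones, all far under the median of all probe sets. The genes that the sort relied on were also under that median in all 4 arrays, with Ptprc (CD45) at 13.8 to 36.4, Itgam (CD11b) at 0.456 to 24.3 and Adgre1 (F4/80) at 16.8 to 35.8. Of 27 pan-macrophage and leukocyte markers 26 were on the array, 10 passed the median in at least 1 array and 2 were members. Of 21 Kupffer cell markers 20 were on the array, 8 passed the median in at least 1 array and 3 were members, Id3, Hmox1 and Slc11a1. Among the others, Clec4f, Timd4 and Vsig4 were under the median throughout, while Cd5l read 125 to 195. The summed signal of the pan-macrophage list was 2199 and 2619 in the wild-type separate and co-culture arrays and 2555 and 2575 in the knockout ones. Its 2 members, Laptm5 and Cd53, make up much of each sum. Both were higher in co-culture in wild type and lower in the knockout. The sum was higher in co-culture in both genotypes, so in the knockout it did not follow these 2 genes. Of 22 epithelial markers 5 passed the median and 2 were members, Tjp1, a tight junction protein, and Spint1, a protease inhibitor, while Cdh1, Krt8, Krt18 and Krt19 were under the median in all arrays. The array medians lay between 72.5 and 78.4 and the means after trimming 2% of each tail were 497 or 498.

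Most large co-culture changes were present both with and without Dectin-2. Signals were raised to a floor at the median of all probe sets and log2-transformed, and the co-culture change is the log2 ratio of co-culture over separate culture. In wild type 47 of 7987 members had a co-culture ratio of 2-fold or more upward (0.588%) and 29 downward (0.363%). In the knockout there were 48 upward (0.601%) and 32 downward (0.401%). Both genotypes shared 36 genes that were 2-fold higher and 16 that were 2-fold lower, and 0 genes went opposite ways by 2-fold in each. The overlap is 76.6% of the wild-type higher genes and 75% of the knockout ones. For the lower genes it was a smaller share, 16 of 29 in wild type and 16 of 32 in the knockout. Across members the changes in wild type and knockout, computed from separate pairs of arrays, correlated with Pearson's r of 0.63 and Spearman's rho of 0.45. Genes are not independent replicates, so these are descriptions.

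The difference between genotypes is the wild-type change minus the knockout change on the log2 scale. A positive value means that the wild-type ratio of co-culture over separate culture was the larger, and it says nothing about which way the gene went. Over all members its median was -0.01, its SD over genes was 0.25, and its middle 80% ran from -0.25 to 0.30. It was above 0 in 3787 members (47.4%) and below 0 in 4200 (52.6%). It reached 2-fold in 32 members (0.401%), of which 21 had the larger ratio in wild type (0.263%) and 11 in the knockout (0.138%). With the arrays scaled to a common median, or with quantile normalization, that split was 16 and 16. At 1.5-fold, 269 members passed (3.37%). The changes that the genotypes shared ranged wider, with a mean change over both genotypes of 5.13 for Cxcl1 at the top and -2.08 for Cav1 at the bottom.

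**Figure D1:**
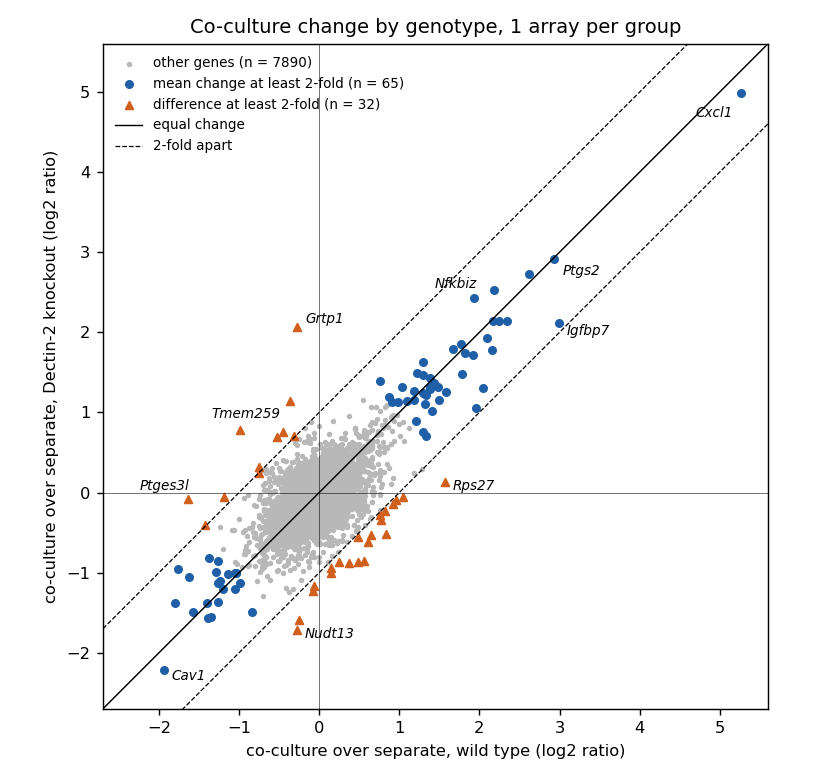
Each point is 1 of 7987 genes, placed by its log2 ratio of co-culture over separate culture in wild type (horizontal) and in Dectin-2 knockout (vertical), 1 array per group. The genes with the largest shared changes, such as Cxcl1 and Ptgs2, lie near the line of equal change, and the 32 genes past a 2-fold difference have mean changes between -0.999 and 0.89.

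Cxcl1, Ptgs2 and Ccl2 had the largest mean changes of all members. Cxcl1, a chemokine that attracts neutrophils, read 321 and 12376 in the wild-type separate and co-culture arrays and 326 and 10366 in the knockout ones. Signals of the other genes are given in the same order, separate culture before co-culture. Both co-culture arrays were far above both separate ones, by 38.5-fold in wild type and 31.8-fold in the knockout, a difference of 0.28, with 0.54 from its second probe set. Ptgs2, the inducible cyclooxygenase that starts prostaglandin synthesis, read 275 then 2106 in wild type and 265 then 1999 in the knockout. Its ratios were 7.65-fold and 7.55-fold and the genotypes differed by 0.02, with 0.32 from its second probe set. Ccl2, a monocyte chemokine, read 2.38 then 467 in wild type and 53.1 then 505 in the knockout, with both separate arrays under the floor. Its ratios were therefore at least 6.13-fold in wild type and at least 6.63-fold in the knockout, and its difference has no bound. Ptges, the synthase that makes prostaglandin E2, was higher in co-culture in both genotypes as well, by 2.06-fold and 1.84-fold. Of 35 chemokines 4 were members, with differences from -0.35 for Cx3cl1 to 0.28 for Cxcl1, and of 16 prostaglandin genes 6 were members, with differences from -0.04 to 0.17. Apart from Ccl2, none of them reached 1.5-fold between genotypes.

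Several inhibitors that NF-kappaB induces against itself were higher in co-culture in both genotypes. Nfkbia, the inhibitor IkappaB-alpha, read 2041 then 6938 in wild type and 1966 then 7114 in the knockout. Its ratios were 3.40-fold and 3.62-fold, and the difference was -0.09, or 0.07 from the second probe set. Nfkbiz, a nuclear IkappaB that switches on secondary response genes, read 779.5 then 2988 in wild type and 626 then 3380.4 in the knockout. The knockout had the larger ratio, 5.40-fold against 3.83-fold, through both a dimmer separate array and a brighter co-culture array. The difference was -0.49 from the brightest probe set and 0.09 from the second. Tnfaip3, the ubiquitin-editing enzyme A20, read 72.8 then 341 in wild type and 93.3 then 412 in the knockout. Its wild-type separate array lay under the floor, so that its wild-type ratio was at least 4.49-fold beside 4.42-fold in the knockout. Bcl3, another nuclear IkappaB, read 80.9 then 367 in wild type and 61.7 then 441 in the knockout, with 4.54-fold in wild type and at least 5.79-fold in the knockout.

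Of 13 listed feedback inhibitors 10 were members, and 5 of the 10 were at least 2-fold higher on the mean change. Their differences ran from -0.63 for Nfkbie to 0.29 for Tnip1, with 4 above 0, 6 below 0, 0 past 2-fold and a median of -0.06, against -0.01 over all members. The differences of Bcl3 and Tnfaip3 count as measured there although each has 1 array under the floor. That median was 0.03 when a gene's value was the median over its probe sets. Nfkbie, which encodes IkappaB-epsilon, had ratios of 1.69-fold in wild type and 2.63-fold in the knockout, and its second probe set gave -0.01. Among the 12 member genes of the 20 listed NF-kappaB subunits and adaptors, Relb, Nfkb2 and Traf1 were at least 2-fold higher on the mean change. Relb, the subunit of the alternative pathway, differed by 0.39, Nfkb2, the precursor of its partner p52, by -0.28, and Traf1, a signalling adaptor, by -0.13. Second probe sets gave -0.60 for Nfkb2 and -0.04 for Traf1. The median of these 12 was -0.08, and it was negative under all 9 other settings, some of which held fewer genes of the list. With members above 8 times the median it was -0.01 over 5 genes, where the median of all members was -0.02. The 17 members of 28 other NF-kappaB targets had a median of 0.02, which was -0.06 with the arrays scaled to a common median, where the median of all members was -0.09. The largest difference among them was 0.67 for the survival gene Bcl2l1, whose second probe set gave 0.19.

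Fgf7, Tgfb1, Cd82, Selp and Ier3 also had a mean change of at least 2-fold. Fgf7, a growth factor for epithelial cells, read 60.0 then 359.6 in wild type and 58.6 then 336 in the knockout, and both of its separate arrays lay under the floor, so that its difference has no bound. Tgfb1, the growth factor TGF-beta 1, was 2.45-fold and 2.76-fold higher in co-culture and differed by -0.17. Cd82, a tetraspanin of the cell surface, read 469.7 then 2007 in wild type and 501 then 1909 in the knockout and differed by 0.17. Selp, the adhesion receptor P-selectin, was 4.47-fold and 3.43-fold higher, with a difference of 0.38. Ier3, an early response gene of cell survival, was 3.78-fold and 3.28-fold higher, with a difference of 0.20. The 12 members of 47 listed cytokines and growth factors had differences from -0.23 to 0.25, and apart from Fgf7 0 were past 1.5-fold. Their median was -0.02.

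The widest gaps between genotypes among the genes at least 2-fold higher in co-culture were those of Rbm47, Igfbp7 and Osbp2. Igfbp7, a secreted binding protein of insulin-like growth factors, read 84.3 then 669 in wild type and 116 then 502 in the knockout. The wild type went from the lowest to the highest of these 4 values, a 7.93-fold ratio beside 4.32-fold in the knockout, for a difference of 0.88. Rbm47, an RNA-binding protein, read 80.0 then 311 in wild type and 159 then 331 in the knockout. Its co-culture arrays were nearly equal and its separate arrays were not, and the difference of 0.90, the largest of all strong responders, lay mainly in separate culture. Osbp2, an oxysterol-binding protein, differed by 0.74, and its second probe set by -0.15. Igfbp7 and Rbm47 have no second probe set above the floor.

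The genes at least 2-fold lower on the mean change were lower in both genotypes too, which their choice by that mean largely brings about. Cav1, the coat protein of caveolae, read 776 then 202 in wild type and 725 then 156 in the knockout. Both co-culture arrays lay under both separate ones, 3.84-fold in wild type and 4.65-fold in the knockout. Cav2, its partner, was 2.56-fold and 2.95-fold lower. Myl9, a light chain of smooth muscle myosin, read 764 then 332 in wild type and 854 then 372 in the knockout, with a difference of 0.00. Dkk2, a secreted Wnt modulator, was 3.49-fold and 2.60-fold lower. Ildr2, a membrane protein, had the widest gap of the lower genes, since it read 1497 then 440.4 in wild type and 1389 then 719 in the knockout. Its difference was -0.81 from the brightest probe set and 0.36 from the second, which has the opposite sign.

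**Figure D2:**
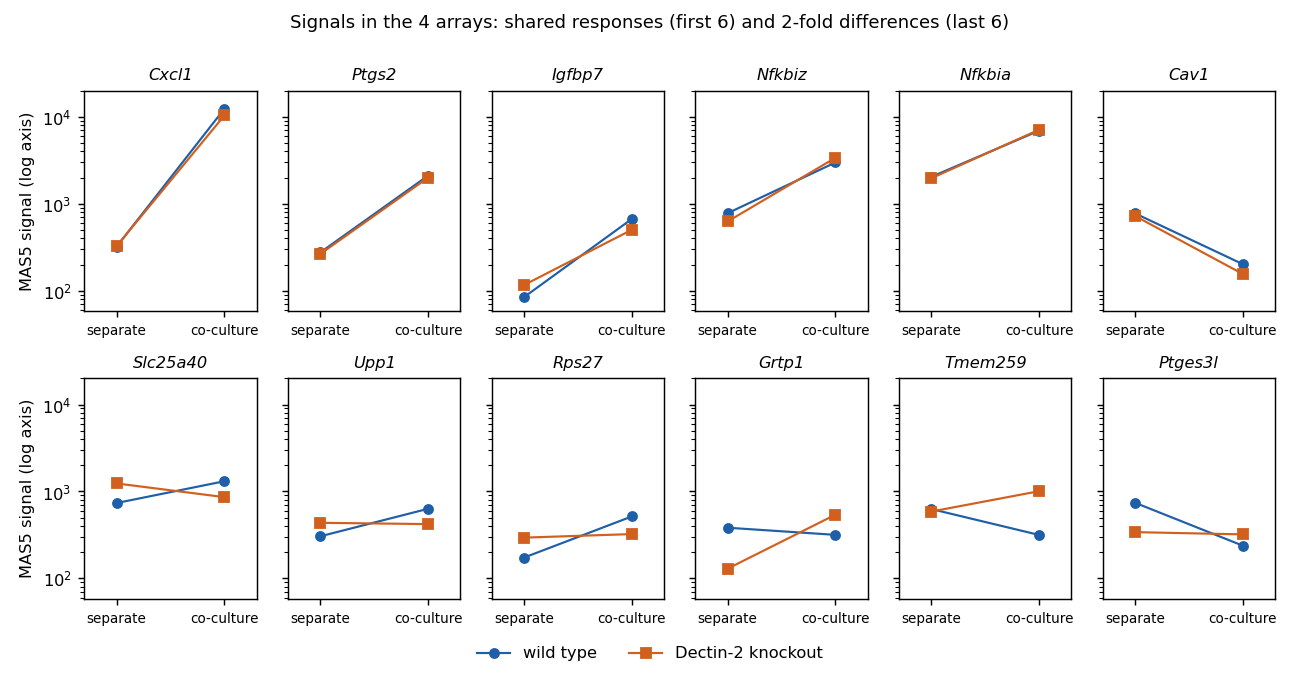
Deposited signals of 12 genes in the 4 arrays on a log axis, separate culture at left and co-culture at right in each panel, with 1 line per genotype and 1 array per point. In the first 6 genes, among them Cxcl1 and Nfkbia, both lines run the same way and the difference is under 2-fold. In the last 6, among them Slc25a40 and Tmem259, the lines cross and the difference is past 2-fold. Lines also cross in some of the first 6, such as Cxcl1, and both run the same way in Rps27 and Ptges3l.

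The genes were then ordered by the size of the shared change. There were 43 members at least 2-fold higher on the mean change (0.538%) and 22 at least 2-fold lower (0.275%). All 43 were at least 1.5-fold higher in each genotype, and all 22 were lower in each. A mean change of at least 2-fold leaves little room for another outcome, so this follows largely from the choice of genes. Among the 43 higher genes the difference was above 0 in 27 and below 0 in 16, with a median of 0.07, which was 0.00 with the arrays scaled to a common median, a scaling that put the median of all members at -0.09. The knockout change was in the median 95.5% of the wild-type change on the log2 scale, with a range from 52.7% to 183%. Among the 22 lower genes the median was 95.7% and the range 53.9% to 177%, and the median difference was -0.05. Of these 65 genes 0 reached a 2-fold difference, beside 0.401% of all members, which is less than 1 gene in 65. Ccl2, Fgf7 and Rrad are among the 65 and their differences have no bound, and those of Bcl3 and Tnfaip3 are bounds. Under other settings the same class of genes held 1 gene past 2-fold without a floor, 1 with a common median, 1 with the median over probe sets, 1 with members above 2 times the median, and 3 higher and 1 lower with second probe sets. At 1.5-fold 7 of the 65 passed (10.8%), beside 3.37% of all members and 8.98% of members with a mean signal under 8 times the median. The strong responders are dim, with a median signal of 397 among the higher genes against 1145 over all members.

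The counts past 2-fold lay at smaller shared changes. The 127 genes that were 1.5 to 2-fold lower on the mean held 7 of them (5.51%), and the 72 genes that were 1.5 to 2-fold higher held 2 (2.78%). The 6631 genes within 1.2-fold held 15 (0.226%). Their median difference was -0.02, and medians of the other classes lay between -0.05 and 0.07. The spread of the difference was 0.23 (SD over genes) within 1.2-fold and between 0.29 and 0.43 in the other classes, including 0.34 for the genes that were 2-fold higher. The classes also differed in brightness, with a median signal of 1332 within 1.2-fold and of 397 to 650 in the others. Of all members with a mean signal under 8 times the median, 1.34% were past 2-fold.

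**Figure D3:**
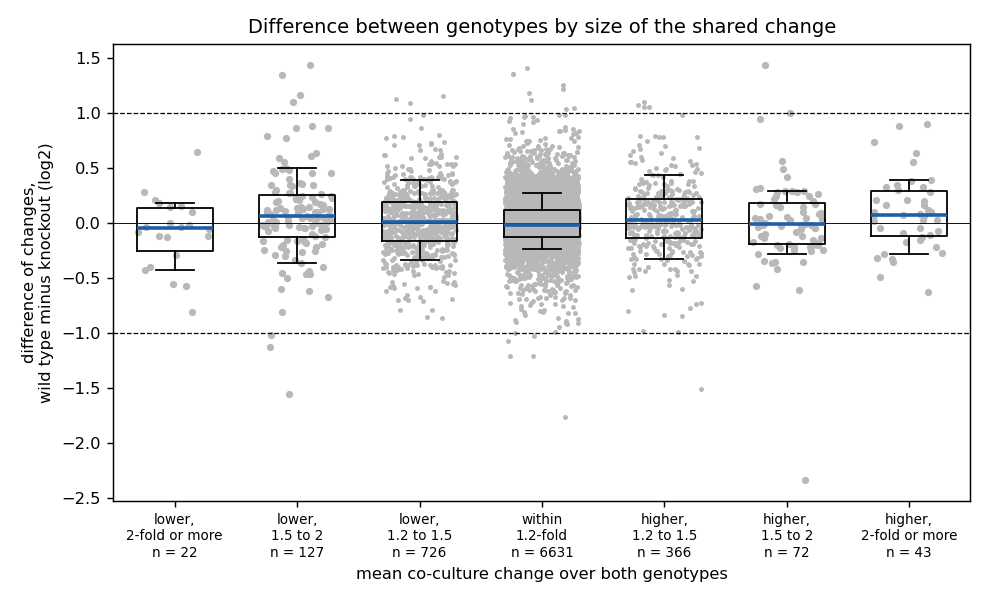
Difference of the co-culture changes, wild type minus knockout on the log2 scale, for 7987 genes in classes of the mean co-culture change, with boxes from the 25th to the 75th percentile, whiskers from the 10th to the 90th, blue lines at the median and dashed lines at 2-fold. Medians lie between -0.05 and 0.07 in all 7 classes, and no gene of the outermost classes passes 2-fold at this floor and scaling, with 5 of their genes drawn at values that the floor sets in part.

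The 32 genes past 2-fold were dim. Their mean signals ran from 186 to 1037 with a median of 318, and all arrays of all 32 lay above the floor. Entry needed only 1 array above the signal threshold, so a gene could enter through the array that makes its difference. With every array required above that threshold, 8 of the 32 remained. By brightness, 29 of the 32 had a mean signal under 8 times the median and 3 lay between 8 and 16 times. Of the 3800 members at 16 times or more 0 passed. The SD of the difference over genes was 0.35 under 8 times the median, 0.25 from 8 to 16 times, 0.18 from 16 to 32 times, 0.13 from 32 to 64 times and 0.10 above that. In the brightest class 688 of 778 genes were below 0 and the median was -0.11, and with quantile normalization 435 of 778 were below 0 and the median was -0.01. The wild type was above the knockout there by a median of 0.12 in separate culture and 0.01 in co-culture. Actb, the cytoskeletal actin gene, is one of these bright genes and read 15836 then 16457 in wild type and 12856 then 14618 in the knockout, with the lowest value in the knockout separate array.

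**Figure D4:**
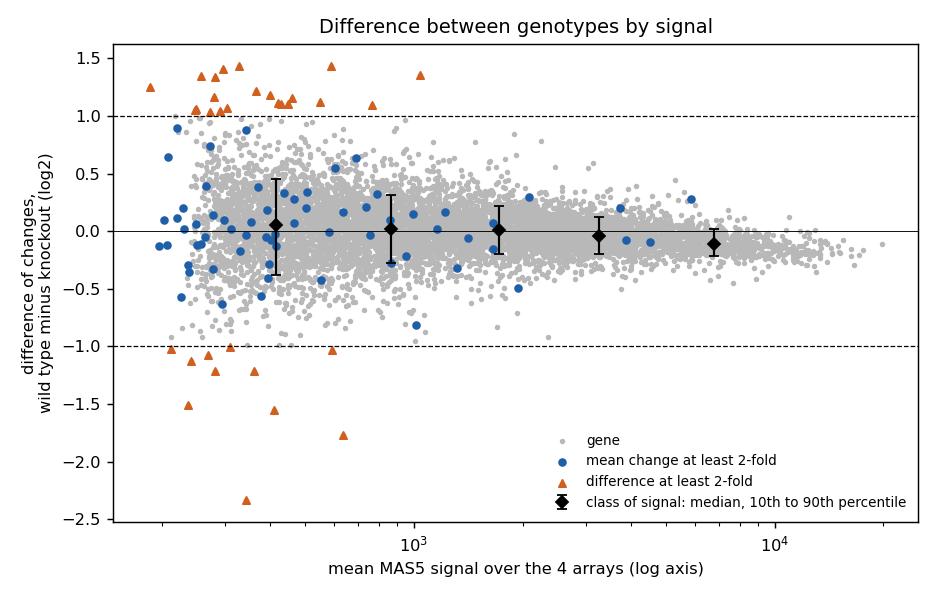
Difference of the co-culture changes, wild type minus knockout on the log2 scale, against the mean signal of each gene over the 4 arrays on a log axis. The spread narrows from an SD of 0.35 in the dimmest class to 0.10 in the brightest, and the 32 genes past 2-fold lie at mean signals of 1037 or less.

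The 21 genes with the larger ratio in wild type were led by Rps27 and Nudt13. Rps27, a protein of the small ribosomal subunit, read 174 then 516 in wild type and 295 then 324 in the knockout. It was 2.97-fold higher in co-culture in wild type and 1.10-fold higher in the knockout, a difference of 1.44. Ribosomal protein genes have near-identical copies in the mouse genome, so the gene behind this dim probe set is uncertain. Nudt13, a Nudix hydrolase, read 619.7 then 510.1 in wild type and 945 then 287 in the knockout, with its highest and lowest values both in the knockout. Its difference was 1.44 from the brightest probe set and 0.12 from the second. Cpeb4, which binds the cytoplasmic polyadenylation element of mRNAs, read 213 then 313 in wild type and 421 then 233 in the knockout, for a difference of 1.41 and 0.35 from the second probe set. The wild type was higher and the knockout lower in co-culture.

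Slc25a40, a carrier of the mitochondrial inner membrane, was the brightest of the 32 and read 737 then 1312 in wild type and 1237 then 861 in the knockout. It was 1.78-fold higher in co-culture in wild type and 1.44-fold lower in the knockout, and it has no second probe set above the floor. Upp1, which splits uridine into uracil and a sugar phosphate, read 305 then 632 in wild type and 436 then 422 in the knockout. Its wild-type co-culture value was the highest, 2.07-fold higher than in separate culture, and the knockout was 1.04-fold lower in co-culture. Aasdh, an aminoadipate-semialdehyde dehydrogenase homologue, read 508 then 605 in wild type and 699.9 then 383 in the knockout, a difference of 1.12. The second probe set of Aasdh gave signals of 81.3 and 97 for wild type and 179.9 and 111 for the knockout, a difference of 0.96. Both probe sets had their highest value in the knockout separate array. Gng11, a G protein gamma subunit, read 395 then 439 in wild type and 672 then 335 in the knockout, a difference of 1.15.

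Further genes in this direction were Prm1 with 1.249, Lrrc8e with 1.22, Ube2d-ps with 1.18, Lyplal1 with 1.16, Mink1 with 1.12, Tbc1d24 with 1.10 and Adpgk with 1.09. Prm1 encodes a protamine of sperm chromatin, Lrrc8e a subunit of volume-regulated anion channels, Mink1 a kinase of the Ste20 group and Adpgk an ADP-dependent glucokinase. Ube2d-ps is a pseudogene, so that signal from its parent family cannot be set apart. Tbc1d22b, Adamts7, Ermard and Sppl2b lay between 1.04 and 1.06, and Cited1 lay just under the threshold at 1.00. Of the 3 further genes, all with provisional names, 3110021A11Rik read 239 then 454 in wild type and 274 then 248 in the knockout. Its second probe set ran the same way, with 0.67 against 1.07.

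The 11 genes with the larger ratio in the knockout were led by Grtp1, which had the largest difference of all members. Grtp1, a TBC-domain protein, read 383 then 317 in wild type and 129.6 then 541 in the knockout. The knockout held both the lowest and the highest value, and its 4.18-fold increase met a 1.21-fold decrease in wild type, for a difference of -2.34. The second probe set was dimmer, with 123 and 87.9 in wild type and 82.5 and 109.6 in the knockout, a difference of -0.90. Like the brightest, it was lower in co-culture in wild type and higher in the knockout. Ptges3l, named for its likeness to a prostaglandin E synthase, read 742 then 238 in wild type and 341 then 321 in the knockout. It stood out in the wild-type separate array and was 3.12-fold lower in co-culture in wild type against 1.06-fold in the knockout. Its second probe set gave -0.83 against -1.55.

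Tmem259, a membrane protein, read 628 then 316 in wild type and 588 then 1008 in the knockout. Its separate arrays were nearly equal and its co-culture arrays were 3.19-fold apart, the only one of the 32 genes with a 2-fold gap between genotypes in co-culture. No second probe set of it lay above the floor. Traf6, the ubiquitin ligase that links several innate receptors to NF-kappaB, read 693 then 557 in wild type and 424 then 695 in the knockout. The knockout separate array was the lowest of the 4, and the difference of -1.03 met 0.43, of the opposite sign, from the second probe set. Pdlim4, an actin-associated protein, read 342 then 150.3 in wild type and 241 then 231 in the knockout, and Col7a1, the collagen of anchoring fibrils, read 306 then 114 in wild type and 244 then 184 in the knockout. Both were more than 2-fold lower in co-culture in wild type and less so in the knockout, with differences of -1.13 and -1.02. The remaining genes were Zfp420 with -1.51, Pwwp2a and Ankra2 with -1.21 each, Car14 with -1.07 and Antkmt with -1.003.

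Genes with a large change in one genotype and little in the other were few. With at least 2-fold in one genotype and a log2 ratio under 0.32 in the other, 6 members were found for wild type and 7 for the knockout. For wild type, Rps27, Cited1, Ptpre and Upp1 were higher and Ptges3l and Pdlim4 lower. For the knockout, Grtp1 was higher and Nudt13, Lyplal1, Tbc1d24, F2rl2, Gng11 and B630019K06Rik lower. Ptpre, a receptor-type tyrosine phosphatase, read 172 then 388 in wild type and 239.8 then 283 in the knockout, a difference of 0.94, with 0.66 from its second probe set. Cited1, a transcriptional coregulator, read 144 then 351 in wild type and 168 then 206 in the knockout.

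Each of the 32 differences can be divided into the gap between genotypes in co-culture and the gap in separate culture. In 31 of the 32 the gaps had opposite signs in the 2 conditions. The choice of the 32 by their difference makes this likely, since over all members the gaps had SDs of 0.18 in co-culture and 0.19 in separate culture. In 5 genes at least 66.7% of the summed gap lay in the co-culture arrays, in 10 it lay in the separate arrays, and in 17 it was spread over both. In co-culture 1 gene of the 32 was at least 2-fold apart, and in separate culture 4 were. Over all members 1 gene was 2-fold higher in wild type in co-culture (0.0125%) and 2 were 2-fold higher in the knockout (0.025%). In separate culture the counts were 4 (0.0501%) and 2 (0.025%). In 24 of the 32 genes the co-culture changes had opposite signs in the 2 genotypes, and in 15 the mean change was within 1.2-fold. A choice by the difference favours opposite signs here too. A 2-fold co-culture change was present in wild type in 5, in the knockout in 7 and in neither genotype in 20.

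A second probe set repeats the measurement on the same arrays but not the culture. For 4956 members it lay above the floor in at least 1 array. The mean co-culture change of the brightest and the second probe set correlated across these genes with r of 0.64 and rho of 0.47. The difference between genotypes correlated with r of 0.09 and rho of 0.10. It had the same sign in 2634 of 4956 (53.1%), was of the same sign and at least 1.5-fold in 204 (4.12%), and was at least 1.5-fold either way in 379 (7.65%). Of the 32 genes past 2-fold 15 had such a second probe set, 9 with the same sign and 6 with the opposite one. It was of the same sign and at least 1.5-fold in 4 of the 15 (26.7%), which were Grtp1, Ptges3l, Aasdh and 3110021A11Rik. In the other direction 0 of the 15 reached 1.5-fold.

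The strong responders gave another picture for the mean change than for the difference. Of the 65 genes 37 had a second probe set, and its mean change had the same sign in 36, all but Cav2, and was also at least 1.5-fold in 33. The difference between genotypes had the same sign in 20 of the 37, with r of 0.12. Within classes of signal, r for the difference was 0.08 under 8 times the median and 0.10 in the brightest class, while r for the mean change was 0.62 and 0.87.

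**Figure D5:**
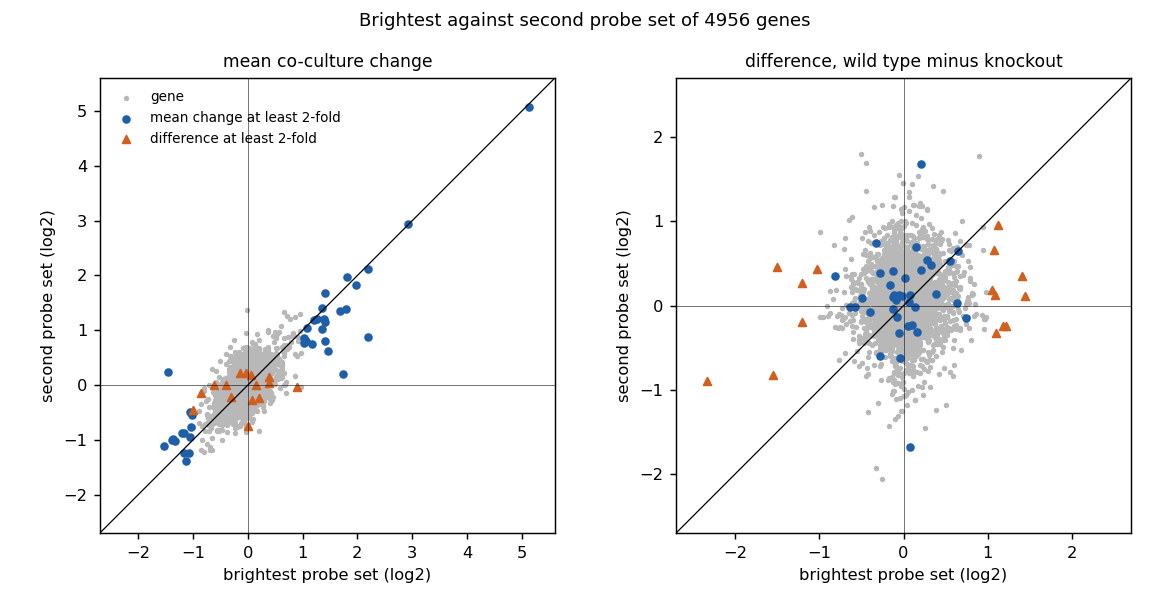
Brightest (horizontal) against second probe set (vertical) of 4956 genes on the log2 scale, for the difference between genotypes in one panel and the mean co-culture change in the other. Points follow the diagonal for the mean change, with r of 0.64, and scatter around 0 for the difference, with r of 0.09.

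Members of the Dectin-2 pathway were measured in part. Of 39 listed C-type lectin receptor and signalling genes 18 were members, and Fcer1g, Syk and Malt1 were not, with highest signals of 144, 39.0 and 184. Clec4d, the related receptor Dectin-3, read 563 then 755 in wild type and 526 then 775 in the knockout and differed by -0.14. Bcl10, the scaffold between Card9 and Malt1, read 2717 then 3617 in wild type and 2925 then 3376 in the knockout and differed by 0.21. Src, a tyrosine kinase, read 889.7 then 1139 in wild type and 1032 then 876 in the knockout, and its difference of 0.59 met 0.48 from the second probe set. Fyn, a kinase of the same family, differed the other way by -0.44, with -0.43 from the second. The list's median was -0.02, 7 of 18 were above 0, and Traf6 was the 1 gene past 2-fold. The median was 0.05 with the median over probe sets.

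Phagocytosis and clearance genes gave little difference. Of 45 listed genes 22 were members, with differences from -0.31 to 0.32, 0 past 1.5-fold and a median of -0.02, which was 0.04 with quantile normalization. Lrp1, an uptake receptor, read 993 then 1353 in wild type and 1043 then 1538 in the knockout, and Axl, a receptor for phosphatidylserine bridging proteins, differed by -0.09. The 2 member genes of the pan-macrophage list were Laptm5, a lysosomal membrane protein of leukocytes, and Cd53, a leukocyte tetraspanin. Laptm5 read 349.6 then 384 in wild type and 502 then 409.8 in the knockout and Cd53 read 663 then 793 in wild type and 719 then 615 in the knockout. Both were higher in co-culture in wild type and lower in the knockout, by less than 0.32 on the log2 scale in each case, with differences of 0.43 and 0.48. Dimmer genes of that list did not all go this way. With members above 2 times the median the list held 5 genes, 4 of them with a difference above 0. Fcer1g, dimmer still, went the other way and read 99.5 then 79.1 in wild type and 112 then 144 in the knockout. Among Kupffer cell markers Slc11a1, a metal transporter of phagosomes, was 2.51-fold and 2.32-fold higher in co-culture. The part of macrophage number in any difference was not tested.

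Sterol genes had the highest list median of those with at least 5 members. Of 27 listed genes 20 were members, 13 of them above 0, with a median of 0.14 that stayed between 0.06 and 0.15 under the other settings and with 0 past 1.5-fold. Mvd, a decarboxylase of the mevalonate pathway, read 278 then 296 in wild type and 360.0 then 263 in the knockout, a difference of 0.54. Stard4, a sterol transporter, read 397 then 378 in wild type and 438 then 291 in the knockout, a difference of 0.52, with 0.02 from its second probe set. Both had the highest value in the knockout separate array and the lowest in the knockout co-culture array. Dhcr7, which reduces the last sterol intermediate, differed by 0.48, and Insig1, a sterol sensor of the endoplasmic reticulum, by 0.38. Hmgcs1, the synthase of hydroxymethylglutaryl-CoA, differed the other way by -0.21, and so did Ebp, a sterol isomerase, by -0.38.

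Heat shock and housekeeping genes lay below 0. All 16 member genes of 20 heat shock genes had differences between -0.30 and 0.04, 15 of them below 0, with a median of -0.12 that was -0.03 with quantile normalization. Hspa8, the constitutive chaperone, read 12951 then 13535 in wild type and 10333 then 12145 in the knockout. The 19 housekeeping members had 17 below 0 and a median of -0.12, which turned to 0.03 with quantile normalization. Both lists are of bright genes, with median signals of 6158 and 8801, and the shift of the brightest class of genes runs the same way.

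Other lists had medians near that of all members. Matrix and mesenchymal genes (17 members) had a median of -0.05, immediate early genes (19) -0.05, interferon-stimulated genes (6) -0.05, oxidative and metal stress genes (23) -0.03, and contractile and Yap target genes (21) -0.04. Unfolded protein stress genes (26) had a median of -0.02, glycolysis and hypoxia genes (21) -0.04 and cell cycle genes (29) -0.01. Of these the medians of the matrix, oxidative stress, unfolded protein, glycolysis and cell cycle lists were at or above 0 with quantile normalization, between 0.00 and 0.05. In the matrix list Col7a1 was past 2-fold. Col5a2, a fibrillar collagen chain, read 272 then 209 in wild type and 319 then 135 in the knockout, a difference of 0.86, with -0.09 from its second probe set.

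Markers of other liver cells were members in few cases. Among 12 stellate cell markers 4 were members, and they did not go one way. Des, the intermediate filament desmin, read 2235 then 1173 in wild type and 1778 then 1086 in the knockout, and Rgs5, a regulator of G protein signalling, read 570.4 then 954 in wild type and 599 then 848 in the knockout. Ecm1, an extracellular matrix protein, read 598 then 686 in wild type and 656 then 915 in the knockout, and Reln, a secreted matrix protein, read 2528 then 2307 in wild type and 2584 then 2285 in the knockout. Des was lower and Rgs5 and Ecm1 were higher in co-culture in both genotypes. Alb, the hepatocyte gene of serum albumin, read 347 then 344 in wild type and 334 then 324 in the knockout and was level over the 4 arrays. Neutrophil, B cell and MHC class II lists held 0 members.

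The signal threshold divided genes that hardly differed in brightness. Just inside, 1110065P20Rik, Dhx57 and Klhl7 had highest signals of 304 to 305 and differences of 0.57, 0.39 and -0.24. Just outside, Slc36a4, Lonp2 and Zfp282 had highest signals of 304 and differences of -0.31, 0.18 and 0.06.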

How the data were processed

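RNA of mixed Kupffer and SL4 cells was measured on 4 one-colour arrays, 1 per group. Per the labels' protocols, cDNA was amplified from 20 ng of total RNA and biotinylated. The deposited values are linear probe set intensities, which the authors made with MAS5 in Affymetrix Expression Console 1.4, per the submitters' processing notes. MAS5 brings the trimmed mean of every array to 1 value, so signals are relative within an array. Detection calls were not used here, and precision is limited by the number of arrays.

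Of 45037 probe sets the platform annotation gave 1 symbol to 34945, several to 932 and none to 9160, which are unnamed here. Entrez numbers matched 34741 in a RefSeq table of GRCm38.p6, which changed 0 symbols. Intensities were raised to a floor of 76.1, the median of all probe sets, and log2-transformed with no further scaling. A gene took its probe set with the highest mean, and the next highest was its second probe set. With 1 array per group and 0 residual degrees of freedom, nothing was tested.

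Named genes were the 15 largest differences per direction with a non-provisional symbol, the 20 highest and 10 lowest mean changes, genes past 2-fold in one genotype and under 0.32 on the log2 scale in the other, up to 10 each, genes with arrays at the floor (up to 5 per direction of the difference, and up to 10 highest and 5 lowest mean changes), Clec4n and members of 29 gene lists. The 3 genes with provisional names past 2-fold and the genes beside the signal threshold were named after their values were seen. The members and lists were chosen with earlier results of these data known. Of 727 list entries 65 were not on the array.

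Alternatives were the floor, the scaling between arrays, the probe set, the signal threshold and the fold threshold. Calculations used Python 3.11.15, pandas 2.3.3, numpy 2.4.6 and scipy 1.17.1, and were tested on simulated data.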

Additional observations from a re-analysis of the deposited data

Results flagged for a closer look

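In 10 flagged genes past a 2-fold difference the co-culture changes of the genotypes ran opposite ways, each by at least 0.32 on the log2 scale. Ermard (difference 1.05) and 3110009E18Rik (1.35), higher in wild type and lower in the knockout, met the same rule and are not among the 10. With 1 array per group none of these differences was tested. Wild type was higher and the knockout lower in co-culture for Cpeb4 (difference 1.41), Slc25a40 (1.36), Prm1 (1.249), Lrrc8e (1.22), Ube2d-ps (1.18) and Mink1 (1.12). Wild type was lower and the knockout higher for Tmem259 (-1.77), Zfp420 (-1.51), Pwwp2a (-1.21) and Ankra2 (-1.21). Of these 10 genes, Slc25a40, Mink1, Prm1 and Tmem259 had no second probe set above the floor. The second probe set gave 0.35 for Cpeb4 and -0.20 for Ankra2, with the same sign, and the opposite sign for Lrrc8e, Ube2d-ps, Zfp420 and Pwwp2a.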

How the results depend on the processing

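The counts of genes past 2-fold, 21 with the larger ratio in wild type and 11 in the knockout, were 22 and 11 without a floor, 20 and 10 with a floor of 2 times the median, and 27 and 15 with the median over probe sets, of which 17 were among the 32. They were 38 and 26 with second probe sets, of which 0 were among the 32. With members above 2 times the median they were 53 and 37, above 8 times 7 and 3, and above 4 times in all arrays 6 and 2. At 1.5-fold they were 162 and 107. Fewer or more genes were counted by construction in these last 4 settings, and for second probe sets the cause was not tested. Second probe sets repeated 4 of 15 differences, and 1 of 8 with the higher floor, 8 of 34, 2 of 6 and 1 of 4 with the other thresholds, which changed the genes that entered. The difference of Prm1 was 0.00 and that of Tbc1d24 -0.32 with the median over probe sets. With the second probe set Lrrc8e was at -0.24, Pwwp2a at 0.27, Tbc1d24 at -0.32, Traf6 at 0.43, Ube2d-ps at -0.24 and Zfp420 at 0.46, and the cause was not tested. Of 2968 values of named genes under other settings 2773 moved by less than 0.23, the SD of the difference over members within 1.2-fold, and 187 moved more. The other 8 are those just given, of genes past 2-fold that turned sign or went to 0, and sign changes of smaller differences, such as that of Ildr2, were counted by size alone. The chemokine median went from -0.03 to 0.16 without a floor, and that of the immediate early genes from -0.05 to 0.14 with second probe sets. The median of the genes lower in co-culture was 0.14 with the median over probe sets and 0.12 with second probe sets. No paired analysis was possible because each group has 1 array. The spread of the difference is widest among dim genes, and MAS5 values give no counting interval.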

Other observations

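Genes under the signal threshold differed more often. Of 2659 genes above the median of all probe sets but not above 4 times it, 47 had a 2-fold larger ratio in wild type and 36 in the knockout (3.12% in all). A further 7547 genes were at or under the median in all arrays and have no difference. Of 1337 bright probe sets without a single gene symbol 2 passed 2-fold in each direction (0.299% in all).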
